A study of Mus musculus with 9 samples.

Results

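The genes described here are 48 genes of ribosome biogenesis and the nucleolus, out of 13890 genes in the deposited table of heart read counts. They were chosen by gene symbol for what their proteins do, by a rule that uses no measured value. The choice was made with earlier results of these data known. By role, 4 belong to RNA polymerase I, 3 to the box C/D and 4 to the box H/ACA small nucleolar ribonucleoproteins, 13 to assembly of the small (40S) ribosomal subunit, 18 to assembly of the large (60S) subunit, and 6 are other nucleolar proteins. All 48 were listed and passed the filter on low values, which kept 13364 genes. In any library, a member had between 58 and 6140 counts.

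Ribosomes are built in the nucleolus. RNA polymerase I transcribes a long precursor of the ribosomal RNAs (rRNAs), small nucleolar RNAs (snoRNAs) guide its chemical modification, and a large set of assembly factors folds, cleaves and trims it while ribosomal proteins join, before the subunits leave for the cytoplasm. Cells raise this programme when they grow, and in the heart it is known to accompany growth of the cardiomyocyte, a cell that enlarges rather than divides. Myc is a well-known activator of many of its genes.

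Heart RNA came from male NSG mice, an immunodeficient strain that lacks mature T, B and natural killer cells, operated at 8 weeks of age and sampled 3 weeks later per the labels, with 3 animals in each of 3 groups. Sham mice (S, animals 2, 3 and 5) received saline into the spleen, mice labelled splenic HCT116 (T, animals 11, 12 and 15) received cells of HCT116, a human colorectal cancer line that seeds liver metastases from there, and mice labelled splenic HCT116+ACVR2B/Fc (A + T, animals 20, 21 and 22) were hosts that also received weekly ACVR2B/Fc. ACVR2B/Fc is the soluble ligand-binding part of an activin receptor fused to an antibody Fc fragment, and it binds myostatin, activins and related ligands. As labelled, the first comparison asks how hearts of tumour hosts differ from sham hearts, and the others ask how treated hosts compare with untreated hosts and with sham mice. HCT116 is a single cell line and the hosts lack adaptive immunity, which limits the model.

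Before the results, 2 limits on the libraries apply. In their fold changes against S, the libraries labelled T followed the column that the study's own gene list gives for sham mice treated with ACVR2B/Fc, and not its column for tumour hosts, so they are called the libraries labelled T throughout and no direction is read as one of tumour hosts. A + T vs. S does not set these libraries against any group. The library of animal 22 (A + T) carried airway transcripts, with a summed level of Scgb1a1 and Sftpb of 1279 CPM (read counts scaled to the size of the library, with TMM factors), while no other library was above 80.6 CPM. The total count was between 12392222 and 19732471 per library. Markers of other cell types moved with the groups. Of the markers tested, 6 of 6 fibroblast, 5 of 5 mural and 4 of 5 endothelial genes were lower in the libraries labelled T than in S, with summed levels of 843 to 979 CPM against 1519 to 1716 CPM for fibroblast, 181 to 248 against 364 to 447 CPM for mural and 419 to 521 against 714 to 835 CPM for endothelial genes. In A + T, 6 of 6 macrophage genes were higher than in S, with 223 to 284 CPM against 145 to 160 CPM. Compared with T, 4 of 6 fibroblast, 4 of 6 macrophage and 2 of 2 tested genes of dividing cells were higher in A + T and none of these lists had a lower gene, with a fibroblast sum of 1132 to 1764 CPM in A + T. Atrial markers summed to 2995 to 3085 CPM in S, 861 to 4554 CPM in T and 794 to 2057 CPM in A + T. No marker of these lists was at 0 in every library, and the summed cardiomyocyte markers were 56450 to 68870 CPM in S, 44020 to 53870 CPM in the libraries labelled T and 38500 to 61470 CPM in A + T. Their part in the results was not tested. In RNA of a whole organ, fewer cells of a type and less RNA per cell cannot be told apart.

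Among the members, levels approximately per unit of gene length were compared on the deposited log2 scale. The offset of this scale from log2 CPM followed exon length only in part (r = 0.788 across genes). Npm1 was the highest at 6.42 on average, followed by Ncl (5.37), Rrp1 (5.36) and Nop10 (5.26), whose order was not fixed, since in S alone Rrp1 (5.29) was above Ncl (5.19) and Nop10 (5.17). At the other end, Heatr1 was at 1.04, Polr1b at 1.12, Rrp1b at 1.2 and Noc3l at 1.42. Replicates were close, and 36 of the 48 had a coefficient of variation under 15% in every group.

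**Figure D1:**
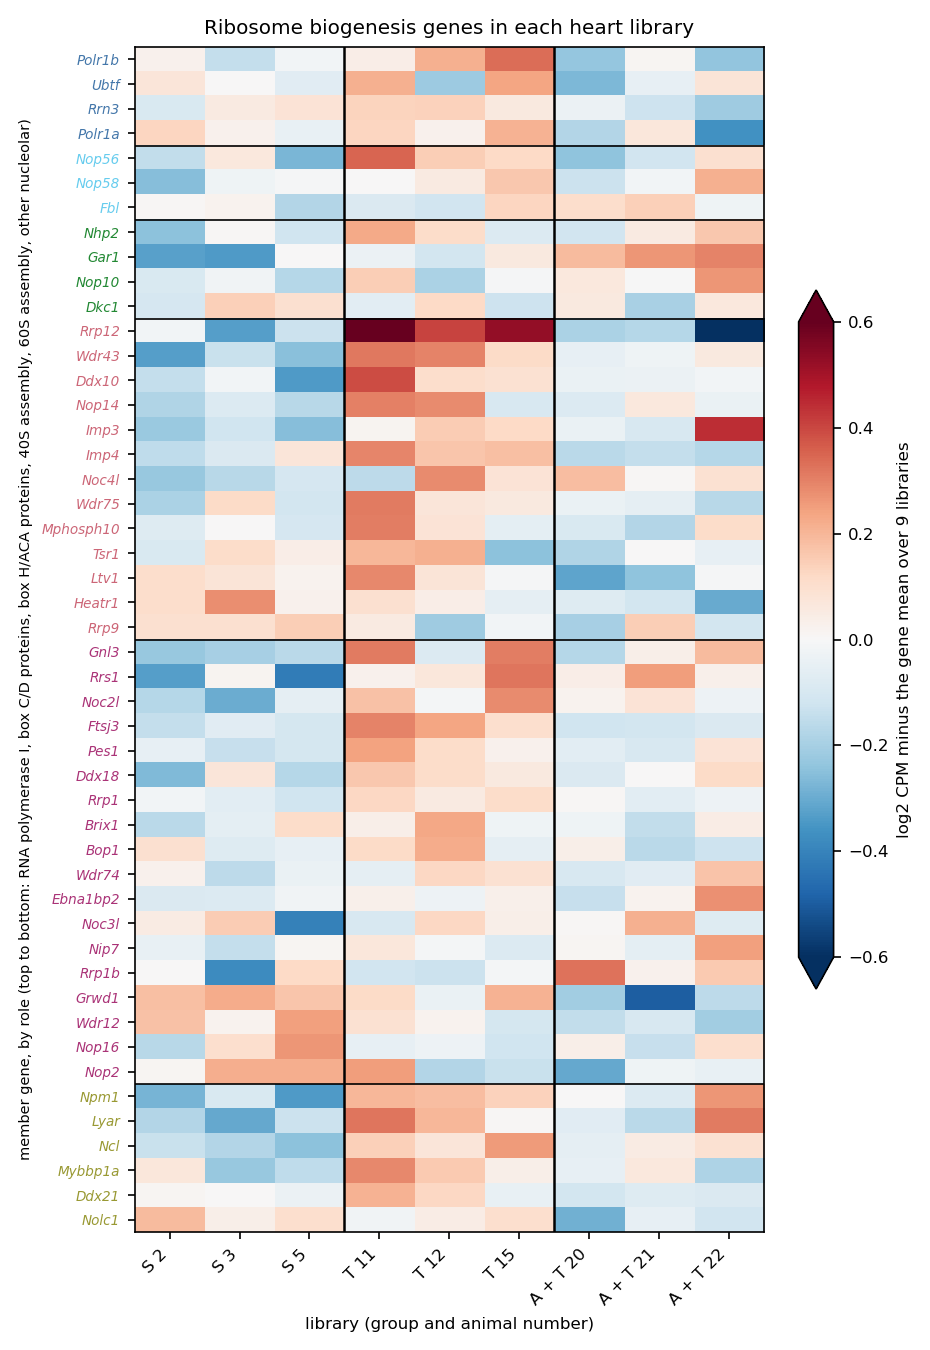
Log2 CPM of each of the 48 members minus its mean over the 9 libraries (colour), with 1 row per gene in role blocks and 1 column per library. Columns T 11, T 12 and T 15 are mostly above the mean, with means over the members of 0.148, 0.078 and 0.069, columns S 2, S 3 and S 5 are mostly below it (−0.079, −0.043 and −0.066), and 2 of the 432 cells lie beyond the colour limit of 0.6.

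The regulatory sequences of the members were read from the RefSeq promoter table (GRCm38.p6), which gives 250 bases before and 50 from the annotated start. It matched 43 members, and Fbl, Rrp12, Bop1, Rrs1 and Npm1 had no entry. The E-box CACGTG, the letters that Myc and related factors bind and which reads the same on both strands, was present in 9 of the 43 members (20.9%), in 10.2% of the promoters of genes kept and in 7.24% of all RefSeq promoters. The letters CCGGAAG, the core bound by ETS factors, searched on both strands, were present in 39.5% of members, 17.4% of genes kept and 9.12% of all. The GC box GGGCGG was about as common in the members (67.4%) as in genes kept (64%). None of the 3 motifs is contained in another, and a match describes the sequence and not a bound site. The promoters below are examples chosen after their motifs were seen. Wdr43, Imp4 and Noc2l passed the test in a comparison and hold either the E-box or the ETS core, and Rrn3 and Nop2 hold both. Not shown are Ncl and Ftsj3, which passed the test and hold neither the E-box nor the ETS core. Also left out are Ddx10, which passed and holds an ETS core, and Tsr1, Ltv1 and Grwd1, which hold both. Each is given 5′ to 3′ from 250 bases before the start through the next 30 bases, all on the plus strand, with the E-box and the ETS core or its complement in capitals. They lie at chr17:71615965-71616244 (Wdr43), chr1:34439579-34439858 (Imp4), chr4:156235765-156236044 (Noc2l), chr16:13780449-13780728 (Rrn3) and chr6:125131633-125131912 (Nop2).
Wdr43: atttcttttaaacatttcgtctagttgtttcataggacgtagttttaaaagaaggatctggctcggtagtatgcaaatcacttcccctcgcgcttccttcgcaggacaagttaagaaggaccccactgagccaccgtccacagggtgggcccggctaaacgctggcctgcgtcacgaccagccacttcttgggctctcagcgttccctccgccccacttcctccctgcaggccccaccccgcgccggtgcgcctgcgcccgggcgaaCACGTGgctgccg
Imp4: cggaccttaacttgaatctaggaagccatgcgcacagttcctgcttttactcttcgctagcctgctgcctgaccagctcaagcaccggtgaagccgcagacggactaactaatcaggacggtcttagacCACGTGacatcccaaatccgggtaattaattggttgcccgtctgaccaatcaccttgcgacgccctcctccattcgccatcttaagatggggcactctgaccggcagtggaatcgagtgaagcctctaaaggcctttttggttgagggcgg
Noc2l: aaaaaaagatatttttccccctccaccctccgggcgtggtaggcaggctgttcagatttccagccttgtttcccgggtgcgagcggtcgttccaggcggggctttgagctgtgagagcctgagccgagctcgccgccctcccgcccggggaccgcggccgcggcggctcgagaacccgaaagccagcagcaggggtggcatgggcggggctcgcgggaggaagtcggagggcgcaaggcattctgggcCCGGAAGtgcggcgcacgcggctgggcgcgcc
Rrn3: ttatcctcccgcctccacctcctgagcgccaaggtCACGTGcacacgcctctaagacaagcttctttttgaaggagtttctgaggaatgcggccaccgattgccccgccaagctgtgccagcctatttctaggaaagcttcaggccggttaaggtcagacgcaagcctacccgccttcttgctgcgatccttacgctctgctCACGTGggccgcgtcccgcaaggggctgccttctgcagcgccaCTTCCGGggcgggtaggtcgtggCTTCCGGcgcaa
Nop2: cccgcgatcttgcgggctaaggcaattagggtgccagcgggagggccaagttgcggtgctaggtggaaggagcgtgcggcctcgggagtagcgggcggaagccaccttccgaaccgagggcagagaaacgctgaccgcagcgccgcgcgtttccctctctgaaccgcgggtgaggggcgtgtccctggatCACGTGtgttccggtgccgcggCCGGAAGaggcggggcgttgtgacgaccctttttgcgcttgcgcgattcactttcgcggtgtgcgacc
The E-box begins 17 bases after the RefSeq start in Wdr43 and 121 bases before it in Imp4 (offset −121). The GENCODE M21 annotation starts Wdr43 earlier, at chr17:71615895, so by that annotation the stretch printed for Wdr43 lies inside the gene. In Rrn3 there are 2 E-boxes, at offsets −215 and −48, and 2 ETS cores, at −5 and 18, while Nop2 has its E-box at −60 and its ETS core at −38, and Noc2l only an ETS core, at −2.

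A second feature that the choice of members did not use is that several members carry snoRNA genes between their start and end. In the GENCODE M21 annotation of GRCm38, 7 of the 48 (14.6%) contain a snoRNA gene on the same strand, against 1.9% of the 12884 genes kept that could be matched. Genes annotated as scaRNA, a related class, were counted as snoRNA genes. Whether these genes lie in introns was not tested. Nop56 holds 5, Nop58 holds 4, Wdr43, Gnl3 and Ncl hold 3 each, Tsr1 holds 2 and Dkc1 holds 1. The counts are of exonic mRNA reads, so they do not measure the snoRNAs themselves.

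In the libraries labelled T, 7 members rose against S and none fell. They were the 40S assembly genes Wdr43, Rrp12 and Ddx10, the 60S assembly genes Ftsj3 and Noc2l, and the nucleolar proteins Ncl and Npm1. That is 14.6% of the 48, whereas 21.2% of all genes tested passed the same limit (10.3% higher and 11% lower), at a Benjamini-Hochberg adjusted P under 0.05 in edgeR's quasi-likelihood test. The share of members called was below that of all genes. The median log2 fold change of the members was 0.16, beside 0.00 over all genes tested, and 39 of 48 were above 0. Fold changes ranged from −0.17 to 0.72 on the log2 scale, and 1 member, Rrp12, passed the study's thresholds (a fold change of 1.5 or more with an unadjusted P under 0.05), which 14.2% of all genes passed. In 17 members every library labelled T was above every S library, and in 1 (Rrp9) every one was below, together 18 of 48 against 42.6% of all genes.

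Rrp12, which is needed for export of the pre-40S particle from the nucleus (chr19:41862851-41896173, minus strand, coordinates of GRCm38 here and below), had the widest swing. It was at 22.5, 18.1 and 20.8 CPM in S, at 38.2, 30.1 and 32.8 CPM in T, and at 19.9, 20.2 and 12.6 CPM in A + T. Each T library was above all the others, and animal 22 of A + T was the lowest. Rrp12 rose by 0.72 ± 0.17 (log2, standard error; adjusted P = 0.0133) in T vs. S and fell by 0.94 ± 0.17 (adjusted P = 0.0153) in A + T vs. T. Without animal 11 of T these adjusted P-values were 0.0596 and 0.0759, and without animal 3 of S the T vs. S value was 0.0587. With only the T and A + T libraries in the fit, the A + T vs. T value was 0.0522.

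Wdr43, a WD-repeat protein of the small-subunit processome (chr17:71615895-71659031, plus strand), whose E-box is shown above, gave the smallest adjusted P. Its level was 29, 33.3 and 30.7 CPM in S, 45.5, 44.8 and 39.5 CPM in T and 35.3, 35.8 and 38 CPM in A + T. The 3 groups did not overlap, with A + T between S and T. It rose by 0.48 on the log2 scale in T vs. S (standard error 0.09, adjusted P = 0.00358) and was called whichever animal was left out, but not when libraries were scaled by their totals only (adjusted P = 0.073). Against T, A + T was at −0.25 (adjusted P = 0.111), which did not pass. Scaling by totals only also ended the T vs. S calls of Ncl (adjusted P = 0.149), Npm1 (0.143), Ftsj3 (0.24), Noc2l (0.19) and Ddx10 (0.223). It ended the A + T vs. T calls of Imp4 (adjusted P = 0.3) and Ftsj3 (0.357), while Rrp12 kept its calls.

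Ncl (chr1:86344719-86359400, minus strand) and Npm1 (chr11:33152287-33163206, minus strand) encode nucleolin and nucleophosmin, the abundant chaperones of the nucleolus. Ncl was at 313, 304 and 290 CPM in S, 380, 362 and 410 CPM in T, and 331, 356 and 366 CPM in A + T. For Npm1 the values were 122, 139 and 117 CPM in S, 170, 168 and 163 CPM in T, and 148, 140 and 178 CPM in A + T. Neither gene overlapped between S and T, and each A + T library was above the highest S library. Ncl rose by 0.34 (standard error 0.08, adjusted P = 0.0134) and Npm1 by 0.41 (standard error 0.10, adjusted P = 0.0193) in T vs. S. The calls were lost without animal 5 of S (adjusted P = 0.061 for Ncl and 0.0779 for Npm1), and that of Npm1 also without animal 2 of S (0.071) or animal 11 of T (0.0628).

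Ftsj3, a methyltransferase that modifies pre-rRNA on the way to the 60S subunit (chr11:106249142-106256079, minus strand), was at 28, 29.5 and 28.7 CPM in S, 38, 36.4 and 33.1 CPM in T and 28.4, 28.6 and 29.1 CPM in A + T. S and A + T shared the same range and T stood above both. The rise in T vs. S was 0.32 ± 0.08 (log2, standard error; adjusted P = 0.0143), and in A + T vs. T the gene fell by 0.32 ± 0.08 (adjusted P = 0.0382). Leaving out animal 2 of S (adjusted P = 0.0533) or animal 11 of T (0.0584) ended the T vs. S call. The second call ended in 7 of 9 fits with 1 animal removed, with adjusted P of 0.0599 to 0.144, and held without animal 15 of T or animal 22 of A + T.

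Noc2l and Ddx10 passed by less, and they were named after their values were seen. Noc2l, which escorts pre-60S particles (chr4:156236010-156247616, plus strand), was at 26.4, 24.2 and 28.6 CPM in S, at 33.6, 29.5 and 36.2 CPM in T and at 30.2, 31.5 and 29.1 CPM in A + T. Ddx10, an RNA helicase of 40S assembly (chr9:53098635-53248053, minus strand), was at 15.5, 16.9 and 13.5 CPM in S, at 22.4, 18.4 and 18.2 CPM in T and at 16.6, 16.7 and 16.9 CPM in A + T. S and T did not overlap in either gene, with log2 fold changes of 0.33 (adjusted P = 0.0365) and 0.36 (adjusted P = 0.0464). Noc2l lost its call without animals 2 or 3 of S or 11 or 15 of T (adjusted P of 0.0861, 0.132, 0.102 and 0.0976), and Ddx10 in 6 of 9 such fits, of which the highest adjusted P was 0.173, without animal 11 of T (it held without animal 3, 15 or 22).

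**Figure D2:**
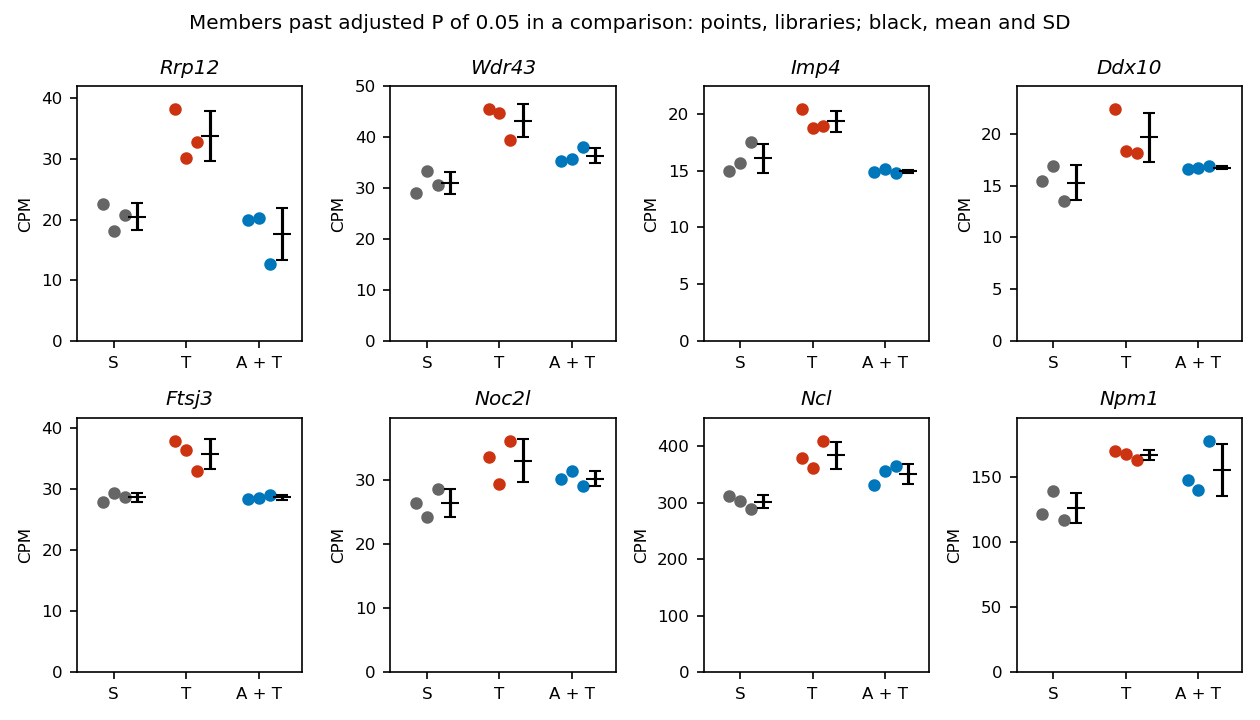
CPM (vertical axis, from 0) of the 8 members called in a comparison, with 1 point per library in groups S, T (as labelled) and A + T, and the mean and SD in black. In each of the 8 panels every library labelled T lies above every S library, and Rrp12, Imp4 and Ftsj3 are the 3 in which A + T was called lower than T.

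Of the role groups in T vs. S, the 40S assembly genes had a median of 0.25 (log2 fold change) with 3 of 13 called, the 60S assembly genes 0.11 with 2 of 18 called, and the other nucleolar proteins 0.30 with 2 of 6 called. These shares were 23.1%, 11.1% and 33.3%, beside 21.2% of all genes tested. The groups are small, and a difference between them was not tested. The median was 0.09 for RNA polymerase I, 0.17 for box C/D and 0.14 for box H/ACA proteins, and no gene of these 3 groups was called. Polr1a, the largest subunit of RNA polymerase I, was at 44.4 to 50.1 CPM in S and 46.6 to 52.9 CPM in T (log2 fold change 0.08, standard error 0.11). Its partner Polr1b was at 7.82 to 8.79 CPM in S and 8.86 to 10.9 CPM in T, without overlap (0.24, standard error 0.13, adjusted P = 0.217). Ubtf, which opens the rRNA gene for transcription, and Rrn3, which brings the polymerase to it and whose promoter holds 2 E-boxes, were both at 0.09 (standard errors 0.13 and 0.08). These 4 genes therefore stayed within overlapping ranges, apart from Polr1b.

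The core proteins of the box C/D particles, which carry out 2′-O-methylation of rRNA, were uneven. Nop56 was at 17.9 to 22.6 CPM in S and 23.5 to 27.6 CPM in T (log2 fold change 0.32, standard error 0.12, adjusted P = 0.0828). Nop58 differed by 0.17 (adjusted P = 0.309), and Fbl, the methyltransferase fibrillarin, by 0.02 with a 95% interval from −0.25 to 0.29. For the box H/ACA particles, which convert uridine to pseudouridine, Nhp2 was at 0.21, Gar1 at 0.19, Nop10 at 0.08 and the catalytic Dkc1 at −0.06, all with overlapping ranges. The Bop1, Pes1 and Wdr12 proteins form a complex that processes the 60S precursor, and their log2 fold changes were 0.11, 0.23 and −0.14. Of these, Pes1 did not overlap between S (29.8 to 31.7 CPM) and T (33.4 to 38.8 CPM), with an adjusted P of 0.0822.

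Members below S in the libraries labelled T lay close to it. The lowest were Rrp9, a protein of the U3 snoRNA particle (−0.17), Nop2, an rRNA methyltransferase (−0.16), and Nop16 and Wdr12 (−0.14 each), followed by Heatr1 (−0.11), Grwd1 (−0.1), Nolc1 (−0.07) and Dkc1 (−0.06), of which the smallest adjusted P was 0.335. The members whose promoters hold both the E-box and the ETS core (Rrn3, Nop2, Tsr1, Ltv1 and Grwd1) were not called in T vs. S. Of all genes tested, 21.2% were called there. So few genes cannot be set against that share, and a link between motifs and calls was not tested.

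**Figure D3:**
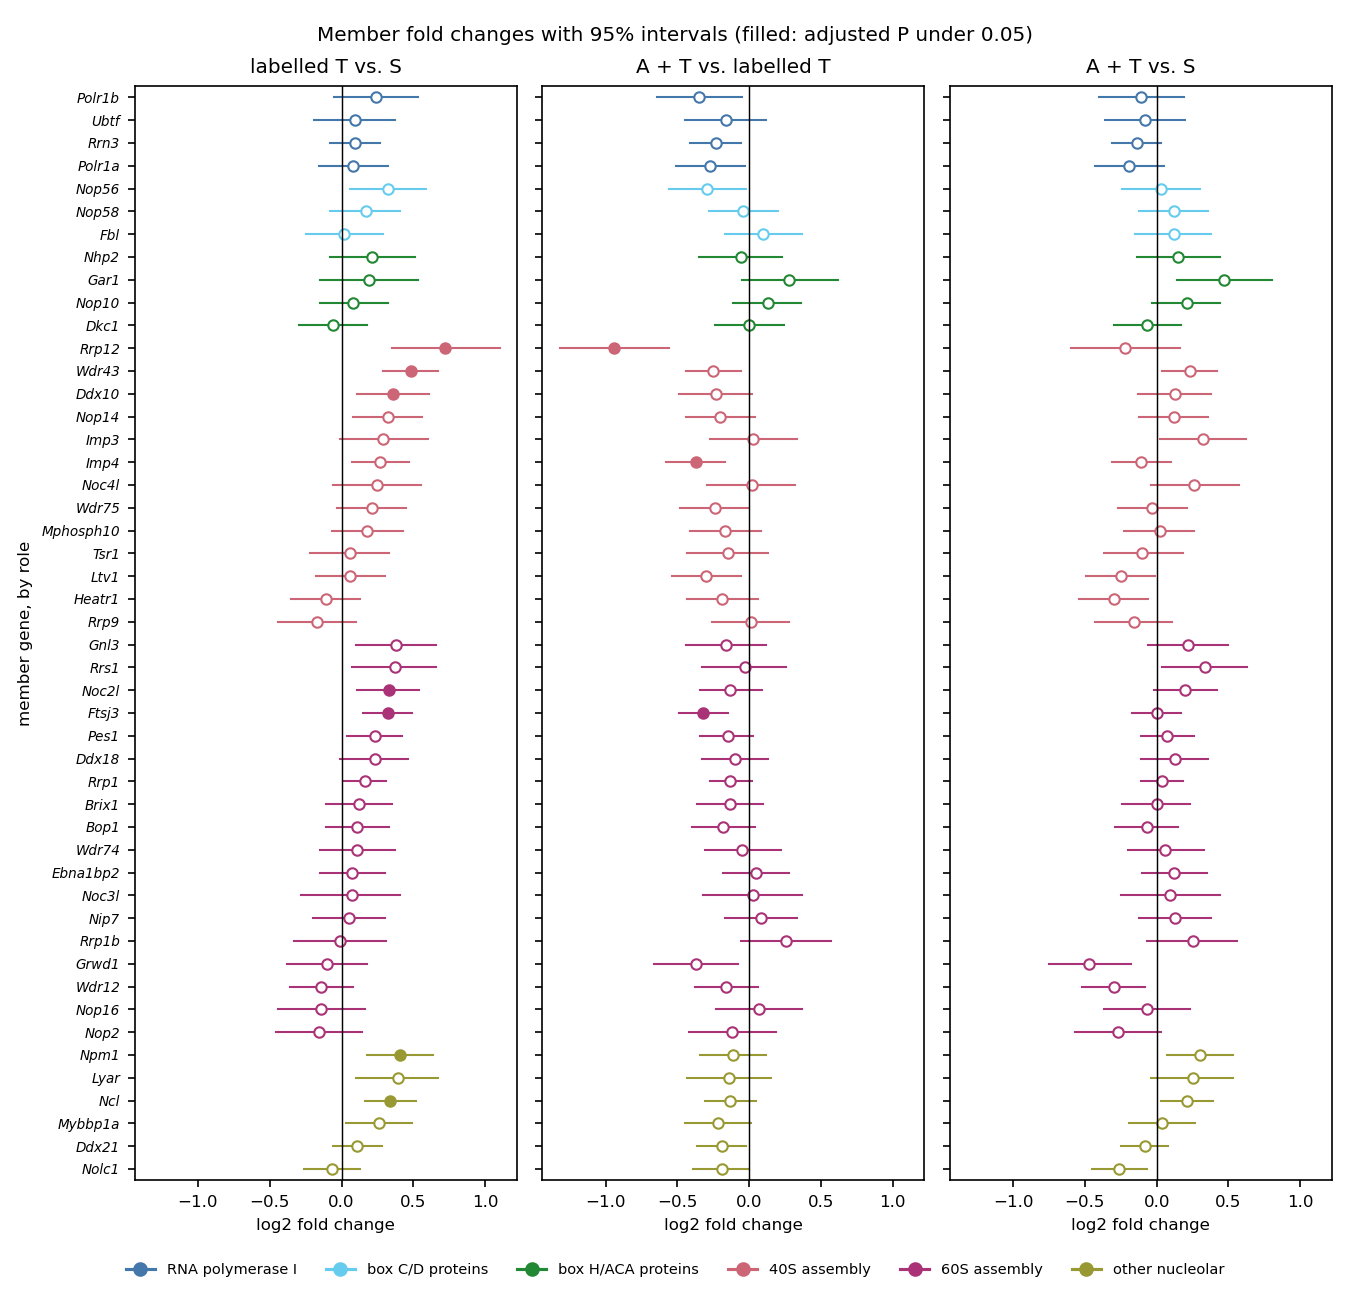
Log2 fold change (horizontal axis) of each member with its 95% interval in the comparisons T vs. S (left), A + T vs. T (middle) and A + T vs. S (right), coloured by role, with filled points for an adjusted P under 0.05. Filled points number 7 on the left, all above 0, 3 in the middle, all below 0, and 0 on the right.

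In A + T vs. T, 3 members fell and none rose. These were Rrp12, Ftsj3 and Imp4, together 6.25% of the members, beside 5.88% of all genes tested (3.09% higher and 2.79% lower). The share of members called was thus near that of all genes. The median log2 fold change of the members was −0.15, beside 0.01 over all genes tested, and 37 of 48 were below 0. Rrp12 again was the 1 member past the study's thresholds, which 8.11% of all genes passed. In 14 members every A + T library was below every library labelled T and in 2 every one was above, against 25.4% of all genes that did not overlap. This comparison and the previous one use the same T libraries, so a low or high value in them enters each with opposite sign.

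Imp4, a component of the U3 particle whose promoter is shown above (chr1:34439851-34449356, plus strand), was at 15, 15.7 and 17.5 CPM in S, at 20.4, 18.7 and 18.9 CPM in T and at 14.9, 15.1 and 14.8 CPM in A + T. The A + T libraries lay close together, below every T library and at the level of the lowest S library. Imp4 fell by 0.37 on the log2 scale (standard error 0.09, adjusted P = 0.0426) in A + T vs. T, and in T vs. S it was at 0.27 (adjusted P = 0.0598). This call is fragile, since it was lost whichever of the 9 animals was left out, with adjusted P of 0.0507 to 0.159. In its complex partner Imp3 the order differed, with 20.3, 19.5 and 28.4 CPM in A + T and 21.1, 23.2 and 22.7 CPM in T (log2 fold change 0.03). Without animal 22 that value was −0.17.

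Other members low in A + T vs. T did not pass. Grwd1, a histone-binding protein of 60S assembly, was at 7.79, 6.39 and 8.07 CPM in A + T and at 9.73, 8.74 and 10.4 CPM in T (log2 fold change −0.37, adjusted P = 0.125). Polr1b was at −0.35 (adjusted P = 0.154), Ltv1, a factor of late 40S maturation, at −0.30 (adjusted P = 0.128), Nop56 at −0.29 (adjusted P = 0.188) and Polr1a at −0.27 (adjusted P = 0.178). Highest were Gar1 (0.28), Rrp1b (0.26), Nop10 (0.13) and Fbl (0.10), of which the smallest adjusted P was 0.298. All 4 RNA polymerase I genes and all 6 other nucleolar proteins were below 0, with medians of −0.25 and −0.17, against −0.20 for 40S assembly, −0.12 for 60S assembly, −0.04 for box C/D and 0.06 for box H/ACA genes.

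In A + T vs. S, no member was called in edgeR's quasi-likelihood test, whereas 8.31% of all genes tested were (4.67% higher and 3.64% lower). At an unadjusted P under 0.05, 6 members were higher and 5 lower, beside 1820 higher and 1669 lower of the 13364 genes tested. DESeq2 also called 0, as did the fit of the S and A + T libraries alone, limma-voom and the filter of at least 10 counts in every library called 1 (Grwd1), and limma on the deposited log2 values called 2 (Grwd1 and Gar1). Of all genes, these fits called 11.5%, 6.69%, 8.98%, 9.25% and 7.67%, in this order. None passed the study's thresholds, which 8.91% of all genes passed. The median log2 fold change of the members was 0.04, beside 0.00 over all genes, with 27 above and 21 below 0, and 16 members (9 higher and 7 lower) did not overlap against 32.4% of all genes.

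Grwd1 and Gar1 stood at the ends of this comparison. Grwd1 was at 10.2, 10.5 and 10.1 CPM in S, above every A + T library, at −0.47 ± 0.13 (log2 fold change and standard error, adjusted P = 0.0513). Gar1, the structural protein of box H/ACA particles, was at 4.49 ± 0.623 CPM (SD, n = 3) in S and at 5.94, 6.25 and 6.41 CPM in A + T, without overlap (0.47, standard error 0.15, adjusted P = 0.0802). The next highest were Rrs1 (0.34), Imp3 (0.32) and Npm1 (0.30), and the next lowest were Heatr1 and Wdr12 (−0.30 each), Nop2 (−0.27), Nolc1, a chaperone of snoRNA particles (−0.26), Ltv1 (−0.25), Rrp12 (−0.22) and Polr1a (−0.19). Their adjusted P-values were between 0.0856 and 0.445. Lyar, a nucleolar zinc-finger protein, was at 0.25 here (adjusted P = 0.261) and at 0.39 in T vs. S (adjusted P = 0.0579).

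**Figure D4:**
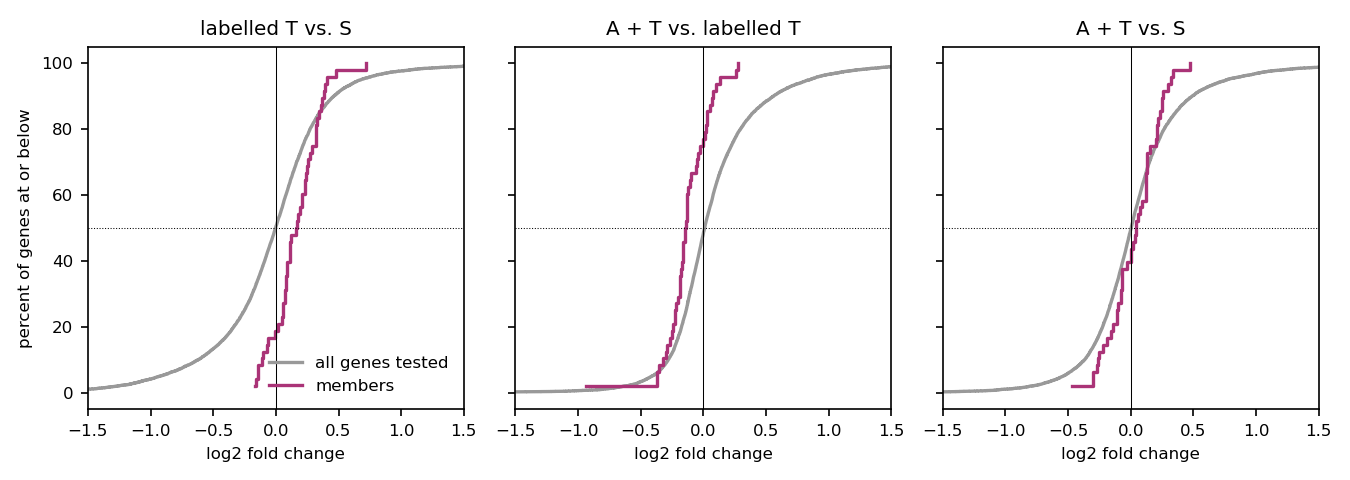
Percent of genes (vertical axis) at or below each log2 fold change (horizontal axis, −1.5 to 1.5) for the 48 members and for the 13364 genes tested. The member curve lies to the right of that of all genes at its middle in T vs. S (median 0.16 against 0.00), to the left in A + T vs. T (−0.15 against 0.01) and near it in A + T vs. S (0.04 against 0.00), and it is steeper in each.

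Other genes of the same pathway were counted from a list of 106 tested genes of RNA polymerase I, subunit assembly and the exosome, which trims rRNA. In T vs. S, 20 of them rose and none fell (18.9%, beside 21.2% of all genes tested), with a median of 0.07. The 3 highest of those called were Taf1d, a subunit of the RNA polymerase I selectivity factor (0.66, adjusted P = 0.00406), Rpf1, a 60S assembly factor (0.64, adjusted P = 0.002), and Gtpbp4, a nucleolar GTPase of 60S assembly (0.57, adjusted P = 0.00188), and the 3 lowest were Utp14a (0.31), Las1l (0.28) and Ddx54 (0.27). In A + T vs. T, 2 fell (1.89%, beside 5.88% of all genes), Gtpbp4 (−0.42, adjusted P = 0.0243) and, named after its value was seen, the helicase Ddx24 (−0.56, adjusted P = 0.00298). In A + T vs. S, 3 rose and 1 fell (3.77%, beside 8.31% of all genes), among them Rpf1 (0.38, adjusted P = 0.0435). With 1 animal left out, this call held in 2 of 9 fits (highest adjusted P 0.135). The call of Gtpbp4 in A + T vs. T held in 4 of 9 (highest 0.0864). In T vs. S, Taf1d, Rpf1 and Gtpbp4 held in all 9, and Utp14a, Las1l and Ddx54 in 4, 6 and 6. Of 10 noncoding host genes of snoRNAs, 2 rose in T vs. S, 3 in A + T vs. S and none in A + T vs. T, with medians of 0.56, 0.60 and 0.29, where 21.2%, 8.31% and 5.88% of all genes were called. Leaving out animal 11 of T lowered the count of 20 to 8, and leaving out animal 2 or 5 of S lowered it to 10. The share of all genes called was 13.2%, 13.4% and 13.9% in these fits.

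Myc, an activator of the pathway, was at 3.71 CPM on average in S, 9.42 CPM in the libraries labelled T and 10 CPM in A + T. It rose by 1.33 in T vs. S (standard error 0.17, adjusted P = 0.000815) and by 1.43 in A + T vs. S (standard error 0.17, adjusted P = 0.00244), and A + T vs. T was at 0.10 (adjusted P = 0.777). Its relative Mycn went the other way against S, with means of 4.19, 0.45 and 1.48 CPM in the same order. Mycn fell by 3.18 in T vs. S (adjusted P = 0.000184), on only 10, 6 and 4 counts in the libraries labelled T. In A + T it was below S by 1.5 (adjusted P = 0.00958) and above T by 1.68 (adjusted P = 0.02). The call against T held in 6 of 9 fits with 1 animal left out.

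The members together took 0.176%, 0.183% and 0.178% of the counts outside Rn45s in S, 0.201%, 0.202% and 0.193% in T, and 0.185%, 0.186% and 0.211% in A + T. By this sum, in which genes with many counts such as Ncl weigh most, the T and A + T libraries were all above S, and animal 22 was the highest. With each member weighted equally, the order differed. The mean log2 CPM relative to each gene's mean was −0.074, −0.039 and 0.006 in A + T. That overlapped S (−0.079, −0.043 and −0.066), and animal 22 was below every T library (0.148, 0.078 and 0.069). Rn45s, the locus of the rRNA precursor, took 19%, 7.98% and 9.5% of all counts in S, 4.57%, 5.18% and 19.5% in T and 8.6%, 17.4% and 19.6% in A + T. These shares overlapped between all groups, and in libraries enriched for mRNA they reflect what rRNA was left over and are no measure of its synthesis.

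**Figure D5:**
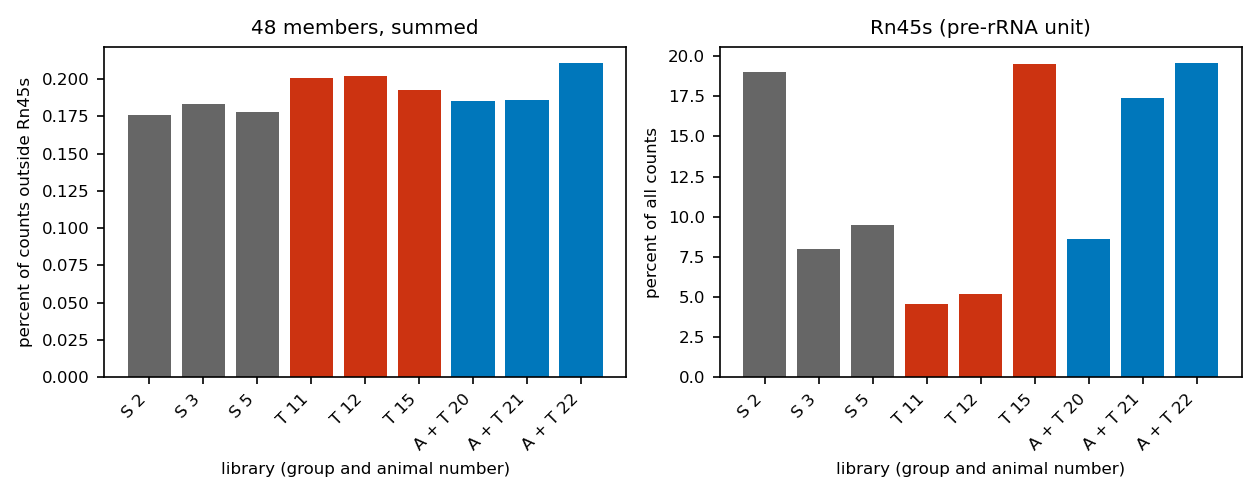
Left, the summed counts of the 48 members as a percent of counts outside Rn45s in each library (vertical axis, from 0). Right, Rn45s as a percent of all counts, which ranges from 4.57 to 19.6 and does not separate the groups.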

How the data were processed

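The authors isolated heart RNA of 9 mice, kept RNA of integrity number 7 or more, made mRNA-enriched libraries, sequenced paired ends, aligned them to mm10 with STAR and deposited the raw counts per RefSeq gene, made with featureCounts with strand. They also deposited log2 values, which differed from log2 CPM by a constant per gene (median SD 0.000754 over 9626 genes) that followed exon length (r = 0.788 across 9700 genes, which are not independent replicates). Per the labels, isolation of RNA and sequencing took place at one time for the 9 hearts, and RNA of each animal is 1 sample.

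Here, genes with CPM under 0.5 in more than 4 of 9 libraries were removed (526 of 13890). All 9 libraries entered 1 fit in edgeR 4.0.16 (R 4.3.3) with TMM, and its quasi-likelihood test compared T with S, A + T with T, and A + T with S, Benjamini-Hochberg adjusted over 13364 genes and called at adjusted P under 0.05. The standard error is the size of the log2 fold change over the square root of F. The steps were tested on simulated data with changes larger than those of the members called, so changes as small as theirs were not covered. The 48 members and the gene lists were chosen with earlier results of these data known. Members were named by rule (the 8 lowest and 4 highest fold changes of each comparison and core members of each role) with the exceptions stated. Alternatives were DESeq2 1.42.0, limma-voom (limma 3.58.1), upper-quartile or no further normalization, no or a stricter filter, only the libraries compared, limma on the deposited log2 values, without Rn45s, adjusted P under 0.1 and each animal left out. Annotations are GENCODE M21 (GRCm38) and RefSeq (GRCm38.p6). The depth of 12392222 to 19732471 counts per library puts 3 counts at 0.152 to 0.242 CPM, well under every member, a limit that covers counting error only.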

Additional observations from a re-analysis of the deposited data

How the results depend on the processing

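With 3 animals a group and small fold changes, the number of members called depended on the processing more than their direction did. In T vs. S the count of 7 became 1 with library size only, 15 at an adjusted P under 0.1, and 2 to 14 with an animal left out, lowest without animal 11 of T, 3 without animal 2 and 4 without animal 5 of S, and highest without animal 22 of A + T. The share of all genes called moved the same way. Members were at 2.08% beside 12.2% of all genes with library size only, and 31.2% beside 29.6% at an adjusted P under 0.1. They were at 4.17% beside 13.2% without animal 11, and 29.2% beside 28.3% without animal 22. The median of 0.16 was 0.12 with library size only and 0.14 to 0.18 with an animal left out. In A + T vs. T the count of 3 became 1 with upper-quartile normalization, 1 with library size only and 0 with only the libraries compared. Of all genes, 5.68%, 3.28% and 1.62% were called at these settings, in this order. The count of members was 0 to 3 with an animal left out, where 0.973% to 7.53% of all genes were called. It was 0 without animal 11 of T (0.973% of all genes). The median of −0.15 was −0.1 with upper-quartile normalization and −0.17 to −0.1 with an animal left out. In A + T vs. S the count of 0 became 1 with limma-voom, 1 with at least 10 counts in every library, 2 with the deposited log2 values and 5 at an adjusted P under 0.1, and stayed 0 with each animal left out. Of all genes, 8.98%, 9.25%, 7.67% and 15.3% were called at these settings, and 2.01% to 8.13% with an animal left out.

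The other pathway genes called numbered 20 in T vs. S (5 with library size only, 8 to 26 with an animal left out), 2 in A + T vs. T (1 with library size only, 5 at an adjusted P under 0.1, 1 to 6 with an animal left out) and 4 in A + T vs. S (0 with library size only, 1 with only the libraries compared, 1 to 5 with an animal left out). The shares of all genes above apply here too, with 11.2% for A + T vs. T at an adjusted P under 0.1. For A + T vs. S they were 4.15% with library size only and 6.69% with only the libraries compared. An alternative chosen after seeing the data left out the S and T libraries with the largest share of Rn45s (animals 2 and 15). It gave 4 members called in T vs. S, 1 in A + T vs. T and 0 in A + T vs. S, and 6, 1 and 1 other pathway genes. Of all genes, 10.2%, 2.54% and 1.77% were called there. Over all alternatives, 6 members changed sign at least once in T vs. S, 10 in A + T vs. T and 9 in A + T vs. S, none of them called and each within 0.08, 0.12 and 0.09 of 0 in these comparisons as reported. Those that changed sign by more than their standard error were, in A + T vs. T, Nop2 (0.03 without animal 11 of T, range −0.2 to 0.03), Imp3 (−0.17 without animal 22, range −0.17 to 0.13) and Ebna1bp2 (−0.07 without animal 22). Myc, which is no member, was at −0.08 there without animal 21 (range −0.08 to 0.2). Except where fewer libraries or genes entered by construction, the cause was not tested. The counts of members past the study's thresholds kept to within 1.5 times in every alternative run. No paired analysis was possible because the groups share no animal numbers.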
